A study of Mus musculus with 28 samples.

Results

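The first 12 h after a retinoic acid pulse were examined in spermatogonia, the mitotic male germ cells, of mice whose Stra8 gene was intact (WT). WT 12 h was set against WT 0 h, with 2 libraries per group, chosen by genotype and time in the labels; these are 4 of the 28 libraries of a course that also covers 18, 48, 72, 96 and 120 h and Stra8 knockout (KO) mice. All mice of the groups used here were derived from a cross of C57BL/6 and 129s4/SvJae and had been given WIN 18,446 for 7 days, which blocks the synthesis of retinoic acid. WT 12 h and KO 12 h mice then received retinoic acid, and WT 0 h and KO 0 h mice were collected without it. The 12 h and 0 h groups may also differ in the time since the blocker ended and in the time of day. The parts of these and of retinoic acid were not tested apart. Cells positive for the PIWIL2-eGFP reporter, a germ cell label that is carried in all groups, were sorted from fresh testis, and polyA RNA was sequenced on an Ion Proton instrument. The sources used here give neither the age of the mice nor whether a library held one animal or several. The p-values therefore measure no more than the spread between the libraries, which may be technical.

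Retinoic acid enters germ cells, binds RAR and RXR nuclear receptors that sit on retinoic acid response elements, and switches on the genes beside them. In the testis it starts the passage of undifferentiated spermatogonia, which include the stem cells, to differentiating spermatogonia that express the receptor KIT and then divide several times. Stra8, short for stimulated by retinoic acid 8, is a target gene needed for meiosis. WIN 18,446 holds spermatogonia undifferentiated, and a pulse of retinoic acid then releases them together.

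Total counts were 10135820 and 6515288 in the WT 12 h libraries and 8744515 and 6105236 in the WT 0 h libraries, with 21602 to 24005 genes detected per library. The 12 h libraries correlated at 0.978 and the 0 h libraries at 0.975, against 0.945 to 0.962 between the groups (Pearson's r over log2 CPM + 1; CPM is the count scaled to a common library total). Mitochondrial transcripts took 3.06 and 6.68% of counts at 12 h and 1.98 and 6.26% at 0 h, so this share followed the replicate number more than the time. The germ cell markers Ddx4, Dazl and Piwil2 were detected in all 4 libraries: Ddx4, a germ cell RNA helicase, was at 459 and 601 CPM at 12 h and 474 and 559 CPM at 0 h. Dazl, an RNA binding protein, was at 711 and 916 CPM at 12 h and 603 and 793 CPM at 0 h. Piwil2, the gene of the sort, was at 2254 and 2093 CPM at 12 h and 1777 and 2094 CPM at 0 h. Other markers of spermatogonia, such as Dnd1, Lin28a, Zbtb16, Stra8 and Kit, differed between the times and are described below. Of the markers of other testis cells, none of the 18 Sertoli, 5 Leydig, 10 endothelial, 2 erythroid and 4 spermatid genes tested passed the threshold, with 15 of the 18 Sertoli genes below a log2 fold change of 0. The summed level of the Sertoli list was 51.2 and 91.9 CPM at 12 h and 72.7 and 109 CPM at 0 h. The summed levels at 12 h and at 0 h were 19.7 and 34.6 against 19.5 and 31.4 CPM for Leydig, 81.4 and 61.3 against 87.2 and 66.7 CPM for endothelium, 2.10 and 3.40 against 2.58 and 3.02 CPM for erythroid cells, and 8.50 and 5.41 against 14.3 and 11.6 CPM for spermatids. In the myoid and stromal list, summed at 222 and 208 CPM at 12 h and 328 and 458 CPM at 0 h, Col1a1 (collagen I) fell, while Pdgfrb and Mylk rose; the calls of Pdgfrb and Mylk were lost without some single libraries (adjusted p up to 0.102 and 0.372). In the macrophage list, summed at 8.50 and 7.41 CPM at 12 h and 10.1 and 9.89 CPM at 0 h, Mrc1 fell, a call lost without 3 of the libraries in turn (adjusted p up to 0.0952), and Lyz2, C1qb and C1qc had no read in any of the 4 libraries. The part of other cell types in the results below was not tested. In sorted bulk RNA, fewer cells of a kind and less RNA per cell cannot be told apart.

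Within 12 h, 1907 of 17519 genes tested passed the threshold of an adjusted p of 0.05 (10.9%), 939 higher at 12 h (5.36%) and 968 lower (5.53%). The shares of 5.36% and 5.53% are those to set beside the list counts below. Adjusted p-values here and below are from edgeR's quasi-likelihood test with Benjamini-Hochberg adjustment over the 17519 genes, and log2 fold changes are 12 h over 0 h with their standard error (SE). The falls were larger than the rises: the median log2 fold change was 1.15 among genes that rose, −1.55 among genes that fell and 0.01 over all genes tested. At least 8-fold changes were seen for 65 genes that rose and 128 that fell. Replicate numbers paired the WT libraries, and with the number as a block in a fit of the 4 libraries alone 5570 genes passed, 2753 higher and 2817 lower. That block fit draws 2 group means and a block from 4 libraries, so its spread is largely borrowed across genes. Without WT 0 h replicate 1 the counts were 838 in all, 361 higher and 477 lower. Without WT 12 h replicate 1 they were 1055 in all and 407 higher, and without WT 12 h replicate 2 they were 1050 in all, 603 higher and 447 lower. Without WT 0 h replicate 2, 523 genes were higher.

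The genes with the largest rises included the retinoic acid degrading enzyme Cyp26a1, the receptor gene Rarb, Stra8 and Kit. Cyp26a1, a cytochrome P450 that clears retinoic acid, had 26.9 and 45.7 CPM at 12 h and 0.337 and 0.168 CPM at 0 h, a log2 fold change of 6.98 ± 0.77 (SE; edgeR adjusted p = 3.14e-06). Rarb, which encodes retinoic acid receptor beta, had 10.1 and 11.7 CPM at 12 h and 0.225 and 0 CPM at 0 h; with 177 reads against 2, the ratio was 79.9 with a 95% exact counting interval of 21.8 to 665. Exons of Top2b and a gene model overlap 38.4% of the exonic bases of Rarb, so its reads may be shared with them. Neither gene's 12 h libraries overlapped its 0 h libraries, which was also so for 51.3% of all genes tested, 27.2% with both 12 h libraries above and 24.1% with both below. The log2 fold change was 7.58 in Cyp26a1 and 9.12 in Rarb without WT 0 h replicate 1, and without WT 0 h replicate 2 it was 5.48 in Rarb.

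Cyp26a1, Rarb and Blvrb, which encodes biliverdin reductase B, were the genes among the 15 largest rises whose RefSeq promoter window (GRCm38.p6, 250 bases before to 50 after the start) held a DR5. A DR5 is a pair of nuclear receptor half-sites repeated in one direction with 5 bases between them, the classical retinoic acid response element. The windows are shown because each carries this element close to the start, in capitals, at chr19:37697558-37697857 (+ strand) for Cyp26a1, chr14:16575427-16575726 (− strand) for Rarb and chr7:27452168-27452467 (+ strand) for the downstream of 2 Blvrb starts.
Cyp26a1: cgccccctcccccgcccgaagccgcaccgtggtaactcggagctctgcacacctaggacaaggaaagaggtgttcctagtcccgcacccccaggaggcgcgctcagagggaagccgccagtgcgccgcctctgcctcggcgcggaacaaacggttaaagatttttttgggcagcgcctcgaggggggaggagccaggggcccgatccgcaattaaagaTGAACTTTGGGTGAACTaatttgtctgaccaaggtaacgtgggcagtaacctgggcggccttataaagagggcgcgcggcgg
Rarb: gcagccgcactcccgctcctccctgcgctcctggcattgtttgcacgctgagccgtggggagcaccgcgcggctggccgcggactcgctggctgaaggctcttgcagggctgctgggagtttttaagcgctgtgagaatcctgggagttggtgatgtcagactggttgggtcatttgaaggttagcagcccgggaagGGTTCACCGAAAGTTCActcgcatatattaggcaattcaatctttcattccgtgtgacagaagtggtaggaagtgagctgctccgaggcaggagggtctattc
Blvrb: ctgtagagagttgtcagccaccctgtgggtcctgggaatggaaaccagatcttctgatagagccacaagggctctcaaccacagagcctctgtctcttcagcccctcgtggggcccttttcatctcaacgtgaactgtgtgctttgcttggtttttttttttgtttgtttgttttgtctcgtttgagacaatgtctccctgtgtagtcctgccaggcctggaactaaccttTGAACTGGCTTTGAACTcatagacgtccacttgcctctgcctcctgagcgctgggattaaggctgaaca
The first base of the element lay at −32 in Cyp26a1, −53 in Rarb and −19 in Blvrb, counted from the start site as 0, and the half-sites read on the opposite strand in Cyp26a1 and Blvrb. On either strand, the motif was found in 31 of 27025 genes with a window (0.115%), in 3 of 698 genes that rose (0.430%) and in 0 of 686 that fell. It was in 3 of 13 of the largest rises with a window (23.1%). A match is a description of letters, not of a bound site. Whether any of the 3 matches lies in repeated sequence was not checked.

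Stra8 had 722 and 1049 CPM at 12 h and 7.52 and 15.8 CPM at 0 h, which was 77.3-fold higher at 12 h (log2 fold change 6.27 ± 0.93, SE; edgeR adjusted p = 0.00042). The log2 fold change of Stra8 was 6.87 without WT 0 h replicate 2, and it was between 5.79 and 6.49 without any other one of the 4 libraries. In the KO libraries, whose target it is, Stra8 had 31.0 and 26.0 CPM at 12 h and 0.944 and 1.66 CPM at 0 h, so the reads that remain there also rose (4.56 ± 1.09; edgeR adjusted p = 0.0186); which exons the KO removes is not stated in those sources. Kit, the receptor that marks differentiating spermatogonia, had 1412 and 999.5 CPM at 12 h and 22 and 65.2 CPM at 0 h, 27.8-fold higher ( edgeR adjusted p = 7.1e-07). Kit's call was lost in the fit of the 4 libraries with the replicate block (adjusted p = 0.169). The 0 h libraries of Kit were nearly 3-fold apart, and both were far below the 12 h libraries. The log2 fold change of Kit was 4.19 without WT 0 h replicate 1 and 5.77 without WT 0 h replicate 2.

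Among 19 tested receptors, cofactors and direct targets of retinoic acid, 8 rose, among them Cyp26a1, Stra8, Rarb, Stra6, Tgm2, Cyp26b1 and Nrip1, and 1 fell; their median log2 fold change was 0.16. Stra6, a cell surface receptor for vitamin A carried by retinol binding protein, had 23.5 and 10.7 CPM at 12 h and 0.786 and 1.51 CPM at 0 h (3.94 ± 0.63; edgeR adjusted p = 0.000176), and without WT 12 h replicate 1 its log2 fold change was 3.21. Cyp26b1, the second degrading enzyme of this family in the list, had 44.6 and 37.2 CPM at 12 h and 6.62 and 7.71 CPM at 0 h (2.52 ± 0.35; edgeR adjusted p = 3.74e-05). The receptor gene that fell was Rarg, with 57.8 and 60.7 CPM at 12 h and 123 and 109 CPM at 0 h (−0.97 ± 0.18; edgeR adjusted p = 0.000772). Rara, the other receptor of spermatogonia, had 58.0 and 34.4 CPM at 12 h and 80.7 and 52.1 CPM at 0 h, and did not pass (edgeR adjusted p = 0.23). The RXR genes and the corepressor gene Ncor1 did not pass either. The call of Nrip1 was lost without WT 0 h replicate 2 (adjusted p = 0.0978).

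Among genes that take up and process vitamin A, 3 of 13 tested rose, none fell, and the median log2 fold change was 0.61. The retinol dehydrogenase Rdh11 and the alcohol dehydrogenase Adh1 were among them, higher by 1.99 ± 0.33 and 3.83 ± 0.70 on the log2 scale. Aldh1a2, the retinaldehyde dehydrogenase that WIN 18,446 blocks, had 54.5 and 51.1 CPM at 12 h and 42.2 and 24.5 CPM at 0 h and did not pass (edgeR adjusted p = 0.11). Of 23 Hox genes tested, 2 rose and none fell, with a median of 0.02, while 5.36% of all genes tested rose and 5.53% fell. Hoxb1, one of those that rose, had 2.40 and 2.16 CPM at 12 h and 0.337 and 0.335 CPM at 0 h, and its call was lost without any one of the 4 libraries (adjusted p up to 0.223).

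Outside these lists, the largest rise was that of Foxn4, a forkhead transcription factor best known from the retina. Foxn4 had 65.7 and 63.2 CPM at 12 h and 0.337 and 0.503 CPM at 0 h, 152-fold higher (7.24 ± 0.80; edgeR adjusted p = 7.94e-06). The secreted protein gene Spp1 (osteopontin) had 56.3 and 53.9 CPM at 12 h and 1.01 and 1.84 CPM at 0 h, 39.6-fold higher; other genes overlap 18.8% of its exonic bases. Wnt7b, a signalling ligand, had 30.1 and 35.2 CPM at 12 h and 1.12 and 1.17 CPM at 0 h, 28-fold higher. These 3 genes were close to silent in the 0 h libraries and close to equal in both 12 h libraries. The remaining genes of the 15 largest rises were Lpo (lactoperoxidase), Gdap1l1, Coro2b (an actin binding coronin), St8sia6 (a sialyltransferase), Blvrb, Crxos, H2-Q6 and Ccdc88b, with log2 fold changes of 4.28 to 5.24. Leaving out 1 of the 0 h libraries moved Gdap1l1 to as much as 6.29, Blvrb to 5.54, H2-Q6 to 4.94 and St8sia6 to 3.75 or 5.51. Crxos lost its call without 3 of the 4 libraries in turn (adjusted p up to 0.119), and H2-Q6 has near-identical copies among the class I genes, so its reads are uncertain.

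**Figure D1:**
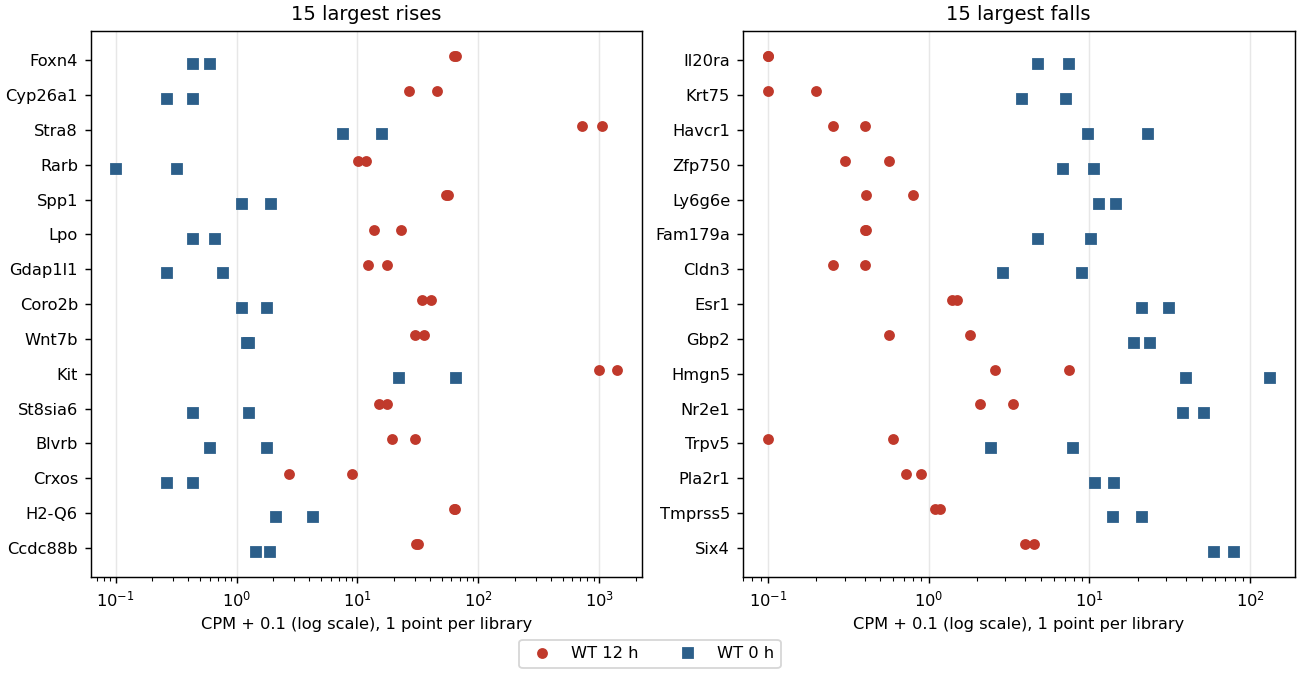
Levels of the 15 genes with the largest rises (left) and the 15 with the largest falls (right) at WT 12 h (red circles) and WT 0 h (blue squares). Each point is 1 library, on a log axis of CPM + 0.1, where 0.1 is added so that genes without reads can be drawn; in none of the 30 genes do the libraries of the 2 times overlap, against 51.3% of all genes tested without overlap, and the selection of these genes required it.

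The largest falls included those of the estrogen receptor gene Esr1 and of the transcription factor genes Six4 and Nr2e1. Il20ra, an interleukin receptor subunit, had no read in either 12 h library and 7.41 and 4.69 CPM at 0 h, at least 15.9-fold lower when 3 counts per library are allowed at 12 h (edgeR adjusted p = 0.00024). Esr1, the estrogen receptor alpha gene, had 1.30 and 1.39 CPM at 12 h and 31.1 and 21.1 CPM at 0 h, 19.3-fold lower (−4.27 ± 0.41; edgeR adjusted p = 4.47e-07). Six4, a homeobox transcription factor, had 4.40 and 3.86 CPM at 12 h and 59.8 and 79.6 CPM at 0 h, 16.7-fold lower (−4.06 ± 0.39; edgeR adjusted p = 4.11e-07). In these 3 genes both 12 h libraries lay far below both 0 h libraries. Nr2e1, an orphan nuclear receptor gene known from neural stem cells, had 2.00 and 3.24 CPM at 12 h and 51.9 and 38.2 CPM at 0 h (−4.13 ± 0.48; edgeR adjusted p = 4.77e-06). Hmgn5, a nucleosome binding protein gene, had 2.50 and 7.41 CPM at 12 h and 39.7 and 132 CPM at 0 h, so its level at 0 h differed more between replicates (−4.16 ± 0.74; edgeR adjusted p = 0.0016), and its log2 fold change was between −5.08 and −3.07 when any one library was left out. Krt75 had 1 read at 12 h and 85 at 0 h, a ratio of 94.2 with a 95% exact counting interval of 16.5 to 3763, 0 h over 12 h. The others were Havcr1, Zfp750, Ly6g6e, Fam179a, Cldn3 (a tight junction claudin), Gbp2, Trpv5, Pla2r1 and Tmprss5, with log2 fold changes of −5.99 to −4.07, and 18.0% of the exonic bases of Ly6g6e are shared. Leaving out any one library gave log2 fold changes between −6.60 and −5.24 for Havcr1, −5.11 and −3.45 for Cldn3 and −5.49 and −3.63 for Gbp2, with −5.33 as the most negative value for Ly6g6e and −3.88 as the least negative for Fam179a. Trpv5 lost its call without WT 0 h replicate 1 or WT 12 h replicate 2 (adjusted p up to 0.18).

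Genes of the undifferentiated state fell as a group: 18 of 27 tested were lower at 12 h, 1 was higher and 8 did not pass, with a median log2 fold change of −1.64. Zbtb16, the zinc finger repressor PLZF needed to maintain spermatogonial stem cells, had 291 and 162 CPM at 12 h and 980 and 679 CPM at 0 h (−1.87 ± 0.27; edgeR adjusted p = 5.31e-05). Foxo1, a forkhead factor of stem cell maintenance, had 163 and 183 CPM at 12 h and 443 and 557 CPM at 0 h (−1.53 ± 0.21; edgeR adjusted p = 2.43e-05). Tspan8, a tetraspanin that marks stem cell enriched spermatogonia, had 0.900 and 0.772 CPM at 12 h and 10.2 and 10.2 CPM at 0 h (−3.57 ± 0.47; edgeR adjusted p = 2.04e-05). In each of the 3, the lower 0 h library was above the higher 12 h library by more than 2-fold. Etv5, Nanos2, Nanos3, Id4, Neurog3, Egr4, Upp1, Lhx1, Tcl1 and Dusp6 fell too, by 2.07 to 3.39 on the log2 scale. The size of the Nanos2 fall was uncertain, with log2 fold changes between −8.31 and −2.60 when single libraries were left out. The falls of Ret, Pax7, Lin28a, Utf1 and T lost their calls without at least 2 of the libraries in turn (adjusted p up to 0.354 in Utf1). Other markers of this state did not pass: Gfra1, the coreceptor for GDNF, had 110 and 69.8 CPM at 12 h and 98.2 and 81.1 CPM at 0 h (0.01 ± 0.28). The pluripotency factor gene Pou5f1 and the tetraspanin gene Cd9 did not pass either. The member that rose was Sall4, a zinc finger factor of both states, with 874 and 598 CPM at 12 h and 422 and 315 CPM at 0 h (1.00 ± 0.26; edgeR adjusted p = 0.0131). Sall4's call was lost without WT 12 h replicate 1 or WT 0 h replicate 2 (adjusted p up to 0.229).

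Among 16 genes of differentiating spermatogonia 4 rose (Stra8, Kit, Ccnd2 and Sohlh2), 1 fell, and the median was 0.30. Ccnd2, a D cyclin, had 940 and 873 CPM at 12 h and 131 and 114 CPM at 0 h, 7.39-fold higher (2.89 ± 0.25; edgeR adjusted p = 1.36e-07). Sohlh2, a helix-loop-helix factor of early differentiation, had 95.8 and 115 CPM at 12 h and 61.7 and 74.1 CPM at 0 h (0.63 ± 0.20; edgeR adjusted p = 0.038), and its call was lost without any one library (adjusted p up to 0.338). Its partner Sohlh1 did not pass, at 231 and 268 CPM at 12 h and 254 and 242 CPM at 0 h. The member that fell was Dnmt3a, a de novo DNA methyltransferase, with 193 and 160 CPM at 12 h and 384 and 298 CPM at 0 h (−0.95 ± 0.17; edgeR adjusted p = 0.000516). Its relative Dnmt3b, at 213 and 221 CPM at 12 h and 166 and 208 CPM at 0 h, did not pass. In the methylation list, Dnmt3l and Tet1 fell with Dnmt3a, while Uhrf1, Dnmt1 and Mbd4 rose, 3 each way among 16. Except for Dnmt3a, each of these calls was lost without at least 2 of the libraries in turn (adjusted p up to 0.344 in Dnmt3l).

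GDNF and FGF, ligands from supporting cells, maintain undifferentiated spermatogonia through the receptors RET and FGFR. Of 26 tested genes of these pathways 4 rose and 4 fell, and the median was 0.05. The falls were Ret, Etv5, and the ERK feedback genes Dusp6 and Spry4. Dusp6, an ERK phosphatase, had 6.10 and 7.57 CPM at 12 h and 48.6 and 43.8 CPM at 0 h (−2.76 ± 0.30; edgeR adjusted p = 2.12e-06). Ret had 162 and 97.8 CPM at 12 h and 433 and 380 CPM at 0 h (−1.64 ± 0.37; edgeR adjusted p = 0.00615). The rises were the receptor genes Gfra3, Fgfr3, Fgfr2 and Fgfr4, led by Gfra3 with 26.9 and 23.9 CPM at 12 h and 3.70 and 4.86 CPM at 0 h (2.58 ± 0.37; edgeR adjusted p = 4.72e-05). The calls of Ret and Fgfr4 were lost without some single libraries (adjusted p up to 0.118 and 0.374). Of 24 immediate early genes, which answer growth factor signals within minutes, 5 fell and none rose, against a median of −0.26. Egr1 fell most, to 58.8 and 39.1 CPM at 12 h, against 224 and 160 CPM at 0 h (−1.97 ± 0.31; edgeR adjusted p = 0.000229). Fos and Jun did not pass, and the falls of Egr2, Zfp36, Btg2 and Ier3 each lost their call without some single libraries (adjusted p up to 0.252 in Ier3).

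Genes that promote or restrain entry into S phase changed in both directions. Cdkn1b, which encodes the cyclin-dependent kinase inhibitor p27, had 4.50 and 3.09 CPM at 12 h and 43.1 and 33.5 CPM at 0 h, 9.93-fold lower (−3.31 ± 0.36; edgeR adjusted p = 1.77e-06). Cdc25a, the phosphatase that activates S phase kinases, had 213 and 190 CPM at 12 h and 62.8 and 70.2 CPM at 0 h (3.02-fold higher; edgeR adjusted p = 2.13e-05). Of 16 G1 cyclins and kinase inhibitors, Ccnd2, Cdc25a, Ccne1 and Ccne2 rose, and Cdkn1b and Ccnd1 fell, the median was 0.00, and 23.4% of the exonic bases of Ccnd1 are shared with other genes. Of the E2F and retinoblastoma genes, 4 of 13 were higher and 1 lower, with a median of 0.41. E2f8, a repressor of the E2F family that cells make in S phase, had 46.2 and 39.5 CPM at 12 h and 7.52 and 11.7 CPM at 0 h (2.17 ± 0.34; edgeR adjusted p = 0.000133). E2f7, its partner, rose by 1.83 ± 0.23. Rb1, the retinoblastoma gene itself, had 71.3 and 75.4 CPM at 12 h and 170 and 146 CPM at 0 h (−1.11 ± 0.28; edgeR adjusted p = 0.00983). The calls of Ccne2, Ccnd1, Rb1, E2f1 and Rbl1 were lost without at least 2 libraries in turn (adjusted p up to 0.340 in E2f1), and that of E2f1 also in the fit of the 14 WT libraries with the replicate block.

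DNA replication genes rose together: 24 of 46 were higher at 12 h, none was lower, and 45 had a log2 fold change above 0, with a median of 0.69. Mcm2, a subunit of the replicative helicase, had 592 and 615 CPM at 12 h and 276 and 301 CPM at 0 h (1.07 ± 0.17; edgeR adjusted p = 0.000127). Cdc6, which loads that helicase, had 102 and 92.2 CPM at 12 h and 26.5 and 36.4 CPM at 0 h (1.63 ± 0.22; edgeR adjusted p = 2.29e-05). Cdc45, part of the active helicase, had 203 and 218 CPM at 12 h and 69.6 and 83.7 CPM at 0 h (1.46 ± 0.19; edgeR adjusted p = 1.42e-05). In each of these 3 genes both 12 h libraries lay above both 0 h libraries, as in 27.2% of all genes tested. Pola2, a subunit of the primase complex, and Lig1, the ligase that seals new strands, rose by 1.39 ± 0.17 and 1.17 ± 0.17. Of the origin recognition genes, Orc1 was higher and Orc2, Orc3, Orc4, Orc5 and Orc6 did not pass. Without WT 0 h replicate 1, 10 replication genes were higher, and with the replicate block in the fit of the 4 libraries 37 were.

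The Mcm6 promoter is shown as the replication gene window with the most E2F motifs. It lies at chr1:128359656-128359955 (− strand, RefSeq GRCm38.p6), and the letters TTTNNCGC on either strand are in capitals.
Mcm6: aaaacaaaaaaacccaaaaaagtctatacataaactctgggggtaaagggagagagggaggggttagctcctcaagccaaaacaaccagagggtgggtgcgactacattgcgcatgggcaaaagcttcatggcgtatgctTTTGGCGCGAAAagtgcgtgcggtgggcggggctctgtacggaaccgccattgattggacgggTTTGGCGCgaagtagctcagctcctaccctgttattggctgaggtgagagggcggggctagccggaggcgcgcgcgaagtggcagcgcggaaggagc
The 3 matches begin at −110, −106 and −47, the first and second of them overlapping each other. Mcm6 had 487 and 559 CPM at 12 h and 250 and 305 CPM at 0 h (0.92 ± 0.17; edgeR adjusted p = 0.00074). The motif was in 16 of 38 replication genes with a window (42.1%), in 9.55% of tested genes with a window and in 5.93% of all 27025. It was chosen after the values were seen.

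Nucleotide synthesis genes rose in part, 7 of 30 with none lower and a median of 0.40. Besides Tyms, the calls of Mthfd1, Mthfd2, Ppat, Shmt1 and Prps1 among the 7 were each lost without at least 1 of the libraries. The log2 fold change of Prps1 was between 0.46 and 0.85 when single libraries were left out. Its call was also lost in the fit of the 14 WT libraries with the replicate block (edgeR adjusted p = 0.0683). Rrm2, the regulated subunit of ribonucleotide reductase, had 44.6 and 52.1 CPM at 12 h and 9.88 and 17.9 CPM at 0 h (1.81 ± 0.28; edgeR adjusted p = 0.000132). Tyms, thymidylate synthase, had 50.9 and 47.7 CPM at 12 h and 22.7 and 28.5 CPM at 0 h (0.95 ± 0.21; edgeR adjusted p = 0.00389), a call that was lost without WT 0 h replicate 1 (adjusted p = 0.111). Of 36 mitosis genes 9 rose and none fell, and the median was 0.25. Top2a, the topoisomerase of dividing cells, had 653 and 810 CPM at 12 h and 246 and 377 CPM at 0 h (1.23 ± 0.20; edgeR adjusted p = 0.000175). Birc5 (survivin) rose by 1.36 ± 0.22. Mki67 had 592 and 849 CPM at 12 h and 147 and 423 CPM at 0 h, with the 0 h libraries nearly 3-fold apart (1.34 ± 0.38; edgeR adjusted p = 0.0282). The kinase gene Cdk1 and its cyclins Ccnb1 and Ccnb2 did not pass, with 43.9 and 45.6 CPM at 12 h and 33.0 and 44.1 CPM at 0 h for Cdk1. The mitosis count was 2 without WT 0 h replicate 1, 4 without WT 12 h replicate 1 and 4 without WT 12 h replicate 2; it was 17 with the replicate block in the 4 libraries. Mki67's call was lost without WT 0 h replicate 1 or WT 12 h replicate 2 (adjusted p up to 0.248), and its log2 fold change was 2.29 without WT 0 h replicate 2.

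Of 39 meiotic genes tested 7 rose, none fell and 32 did not pass the threshold, with a median of 0.36. Mei1, needed for meiotic chromosome synapsis, had 120 and 100.4 CPM at 12 h and 37.9 and 35.4 CPM at 0 h (1.59 ± 0.22; edgeR adjusted p = 2.69e-05). Dmc1, the meiotic strand exchange protein, rose by 1.38 ± 0.26, and Rec8, the meiotic cohesin, by 1.52 ± 0.33. The axis and synaptonemal complex genes Sycp1, Sycp2 and Sycp3 did not pass, and Sycp3 had 40.9 and 73.8 CPM at 12 h and 57.1 and 78.3 CPM at 0 h. The meiotic count was 2 without WT 0 h replicate 1 and 4 without WT 12 h replicate 1, and 18 with the replicate block in the 4 libraries. The calls of Dmc1 and Rec8 were lost without WT 0 h replicate 1 (adjusted p up to 0.0506 and 0.101), and that of Rec8 also without WT 12 h replicate 2.

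The cholesterol pathway had the largest share of members past the threshold of the 37 lists described here. Of its 22 genes 17 were higher at 12 h, none was lower, all 22 had a log2 fold change above 0, and in 21 both 12 h libraries were above both 0 h libraries; this separation held for 27.2% of all genes tested. The median log2 fold change was 1.20. Summed over the list, the level was 5280 and 4108 CPM at 12 h and 2119 and 2408 CPM at 0 h. Without WT 0 h replicate 1 the count was 10, and without WT 12 h replicate 1 it was 11.

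Genes of early and of late steps of the pathway were among the 17. Hmgcs1, which makes HMG-CoA, had 276 and 256 CPM at 12 h and 109 and 141 CPM at 0 h (1.09 ± 0.20; edgeR adjusted p = 0.00064). Mvd, which makes isopentenyl diphosphate, had 186 and 170 CPM at 12 h and 92.4 and 88.0 CPM at 0 h (0.98 ± 0.15; edgeR adjusted p = 0.000101). Both were higher in both 12 h libraries than in either 0 h library.

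In the sterol branch of the pathway, Lss, which folds squalene epoxide into the first sterol, had 272 and 247 CPM at 12 h and 82.7 and 99.1 CPM at 0 h (1.52 ± 0.23; edgeR adjusted p = 7.15e-05). Msmo1, which removes sterol methyl groups, had 141 and 137 CPM at 12 h and 27.1 and 51.3 CPM at 0 h (1.84 ± 0.30; edgeR adjusted p = 0.000197). Insig1, the feedback protein whose transcript SREBP raises, had 334 and 284 CPM at 12 h and 87.8 and 118 CPM at 0 h (1.59 ± 0.24; edgeR adjusted p = 9.68e-05). The 5 genes that did not pass were Srebf2, Fdft1, Fdps, Tm7sf2 and Ebp. Srebf2, the gene of the pathway's master regulator SREBP2, had 966 and 599 CPM at 12 h and 609 and 546 CPM at 0 h (0.44 ± 0.28). The calls of Idi1 and Pmvk were lost without any one of the 4 libraries (adjusted p up to 0.243 and 0.133). Those of Sqle, Nsdhl, Mvk and Dhcr7 were lost without 1 or 2 of the libraries (adjusted p up to 0.169 in Sqle).

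**Figure D2:**
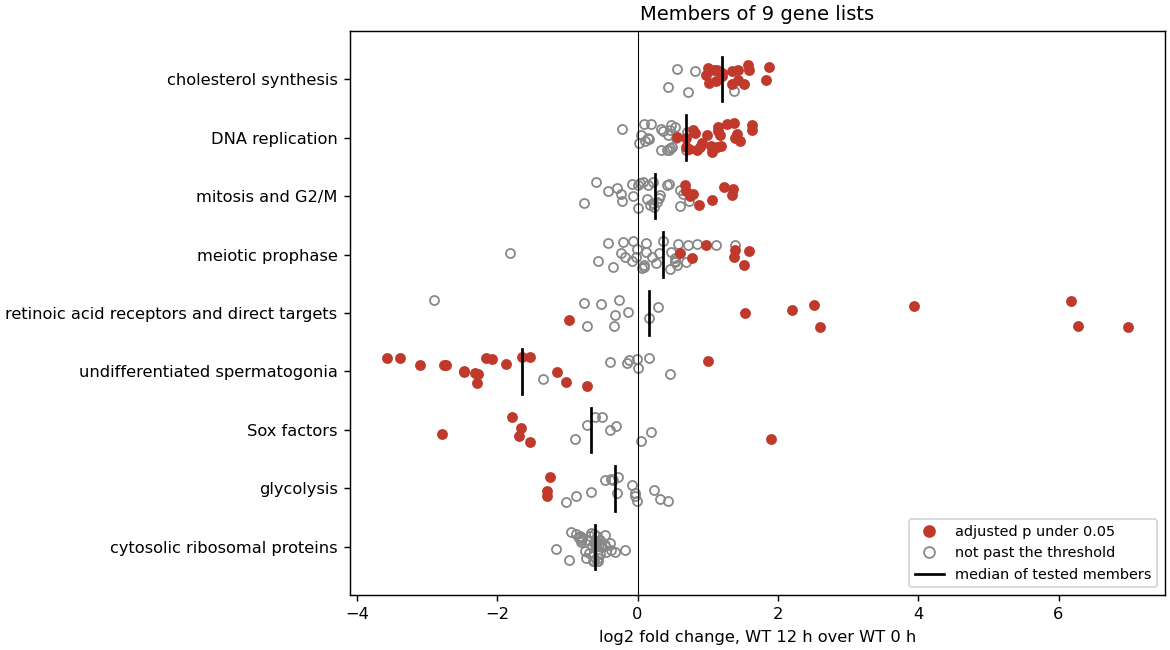
Log2 fold changes, WT 12 h over WT 0 h, of the tested members of 9 gene lists, 1 point per gene, filled where the edgeR adjusted p was under 0.05. The black bars are medians: 1.20 for cholesterol synthesis, 0.69 for DNA replication, −1.64 for undifferentiated spermatogonia and −0.61 for ribosomal proteins, where no gene passed.

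The sterol regulatory element TCACNCCAC, the letters that SREBP binds, was looked for in the same promoter windows after the values were seen. It was in 1 of 16 cholesterol genes with a window (6.25%) and in 1.44% of all 27025. That gene was Hmgcs1, whose window lies at chr13:119690101-119690400 (+ strand, RefSeq GRCm38.p6) and is shown with the element in capitals.
Hmgcs1: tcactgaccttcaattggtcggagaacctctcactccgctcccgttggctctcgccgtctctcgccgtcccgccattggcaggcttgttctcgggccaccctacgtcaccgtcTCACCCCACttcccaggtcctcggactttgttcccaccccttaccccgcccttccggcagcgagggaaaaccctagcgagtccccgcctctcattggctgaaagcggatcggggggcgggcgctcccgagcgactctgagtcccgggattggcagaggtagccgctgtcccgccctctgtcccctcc
The element began at −137 and lay on the strand of the gene. Windows without these letters say nothing about the factor.

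The rise in the cholesterol list was seen at 12 h and not at the later times, in WT and in KO. The summed level in WT was 2119 and 2408 CPM at 0 h, 5280 and 4108 CPM at 12 h and 1713 and 1999 CPM at 18 h, and then between 1639 and 2386 CPM through 120 h. In KO it was 2690 and 2442 CPM at 0 h, 4304 and 5936 CPM at 12 h and 2492 and 2738 CPM at 18 h, and then between 1898 and 3141 CPM. In both genotypes, the 12 h libraries were above every library of every other time. The replication list did not return: summed in WT, it was 4269 and 5311 CPM at 0 h, 7767 and 8316 CPM at 12 h, and 6736 to 7801 CPM from 18 to 120 h. The undifferentiated list, at 3686 and 3246 CPM at 0 h and 2346 and 1786 CPM at 12 h, was at 1199 to 2223 CPM from 18 to 120 h. These courses are descriptions, and the later times were not tested against 12 h. Counted from 0 h, the times of 48, 72, 96 and 120 h are whole days, while 12 and 18 h are not. Clock times of collection are not in the labels. Whether the 12 h levels follow retinoic acid, the end of the blocker or the time of day was not tested, in either genotype.

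The most abundant genes that fell by 2-fold or more were Sdc4, Kdm5b, Zbtb16, Txnip, Zfp462, Foxo1, Stau1 and Ogt. Sdc4, a cell surface heparan sulfate proteoglycan, had 303 and 184 CPM at 12 h and 976 and 875 CPM at 0 h (−1.93 ± 0.25; edgeR adjusted p = 1.97e-05). Kdm5b, a histone H3K4 demethylase, had 341 and 337 CPM at 12 h and 843 and 756 CPM at 0 h (−1.24 ± 0.16; edgeR adjusted p = 1.7e-05). Txnip, a repressor of glucose uptake, had 165 and 197 CPM at 12 h and 645 and 606 CPM at 0 h (−1.79 ± 0.19; edgeR adjusted p = 1.35e-06), with 19.4% of its exonic bases shared. Ogt, the enzyme that adds N-acetylglucosamine to nuclear proteins, fell by 1.95 ± 0.20, Zfp462 by 2.34 ± 0.41 (by 2.99 without WT 12 h replicate 1) and Stau1, an RNA transport protein, by 1.01 ± 0.14. Among abundant genes that rose was Hspa5, the chaperone BiP of the endoplasmic reticulum, with 1056 and 1195 CPM at 12 h and 297 and 494 CPM at 0 h (1.51 ± 0.26; edgeR adjusted p = 0.000308). Of 19 chaperone genes tested, Hspa5 was the only one that rose and Hspa1a the only one that fell, around a median of 0.01. This is near the shares over all genes tested, 5.36% higher and 5.53% lower. The call of Hspa1a was lost without 3 of the libraries in turn.

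Of 14 Sox transcription factor genes 5 fell and 1 rose, with a median of −0.66. Sox3, a factor of undifferentiated spermatogonia, had 38.8 and 51.4 CPM at 12 h and 122 and 137 CPM at 0 h (−1.53 ± 0.36; edgeR adjusted p = 0.00815). Sox4 had 72.6 and 62.6 CPM at 12 h and 195 and 231 CPM at 0 h (−1.65 ± 0.24; edgeR adjusted p = 5.81e-05), with 54.6% of its exonic bases shared with a gene model. Sox10, Sox13 and Sox5 fell too, and Sox8 rose by 1.90 ± 0.40. The calls of Sox3, Sox5 and Sox8 were lost without some single libraries (adjusted p up to 0.127, 0.457 and 0.0532). Among Myc family genes, Mycn, Mycl and Mxd4 fell and none of 11 rose, with a median of −0.10, and Mycl and Mxd4 lost their calls without some single libraries (adjusted p up to 0.206 and 0.0984). Of the piRNA and germline list, Tdrd5, Dnd1, Dppa3 and Dnmt3l fell among 25 genes, with a median of 0.02. Dppa3 lost its call without WT 0 h replicate 1 or WT 12 h replicate 1 (adjusted p up to 0.104). Tdrd5, a piRNA pathway protein, had 87.9 and 97.0 CPM at 12 h and 320 and 284 CPM at 0 h (−1.71 ± 0.21; edgeR adjusted p = 7.74e-06). None of 14 genes of the PRC1.6 repressor complex, which keeps meiotic genes silent, passed (median 0.09). Among 7 Id and E protein genes Id4 and Tcf4 fell, with a median of −0.08, and Tcf4 lost its call without 3 of the libraries in turn (adjusted p up to 0.119).

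Class I and interferon genes split. H2-K1, which presents peptides to T cells, had 64.3 and 72.4 CPM at 12 h and 11.5 and 13.7 CPM at 0 h (2.44 ± 0.31; edgeR adjusted p = 1.17e-05), and H2-D1 rose too; reads of these near-identical genes may be shared. The interferon-induced GTPase gene Gbp3 had 5.80 and 3.09 CPM at 12 h and 36.2 and 39.7 CPM at 0 h (−3.06 ± 0.36; edgeR adjusted p = 4.61e-06; −3.64 without WT 12 h replicate 1), and Gbp2, Irf1 and Isg15 fell with it. Thus 2 rose and 4 fell of 18 in the list, whose median was −0.32. Isg15 had no read at 12 h and was at least 4.48-fold lower; its call and that of H2-D1 were each lost without 3 of the libraries in turn (adjusted p up to 0.129 and 0.191).

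Few genes of the metabolic and housekeeping lists passed. For comparison with these and with the clock, p53 and Bcl2 lists, 5.36% of all genes tested rose and 5.53% fell. In glycolysis Pdk1, Hk1 and Pfkfb3 fell among 18 genes, with a median of −0.32. Pdk1, a pyruvate dehydrogenase kinase, had 50.4 and 53.4 CPM at 12 h and 105 and 150 CPM at 0 h (−1.30 ± 0.20; edgeR adjusted p = 9.28e-05). None of 34 nuclear oxidative phosphorylation genes and 13 mitochondrially encoded genes passed (medians −0.11 and 0.18), and Utp15 was the 1 of 39 ribosome biogenesis genes that did (0.53 ± 0.16), a call lost without any one library (adjusted p up to 0.383). All 43 ribosomal protein genes had a log2 fold change below 0, with a median of −0.61, and none passed. Their summed level was 10888 and 18070 CPM at 12 h and 18048 and 26021 CPM at 0 h, and it was lower in replicate 1 at both times. Without the pairing the libraries of the groups overlapped, but within each replicate number the 12 h sum was below the 0 h sum. The count of these genes past the threshold with the replicate block is not reported here. In KO the median of the same genes was −0.18. Among 19 clock genes 2 fell, one of them Arntl, to 8.40 and 9.27 CPM at 12 h, against 38.6 and 29.7 CPM at 0 h (−1.95 ± 0.29; edgeR adjusted p = 8.66e-05). Of 19 p53 targets, Phlda3 rose and Pmaip1, Btg2 and Sesn1 fell, with a median of 0.11, and in the Bcl2 family Bcl2l11 rose and Pmaip1 fell among 15, with a median of 0.12. Each of these calls was lost without at least 2 of the libraries in turn (adjusted p up to 0.245).

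The same step in KO, which shares no library with the WT step, was then set beside the WT step to ask where the 2 genotypes differ. In KO, 1502 genes passed (8.57%), 724 higher (4.13%) and 778 lower (4.44%). Of the 939 genes that rose in WT, 904 had a log2 fold change above 0 in KO and 448 rose there too, which is 47.7% of the WT list and 61.9% of the KO list. Of the 968 that fell in WT, 932 were below 0 in KO and 443 fell there too, 45.8% of the WT list and 56.9% of the KO list. No gene passed in opposite directions. The cholesterol list had 16 of 22 genes higher in KO with a median of 1.10, and the replication list 24 of 46 with a median of 0.76. The undifferentiated list had 12 of 27 lower in KO, with a median of −0.86.

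**Figure D3:**
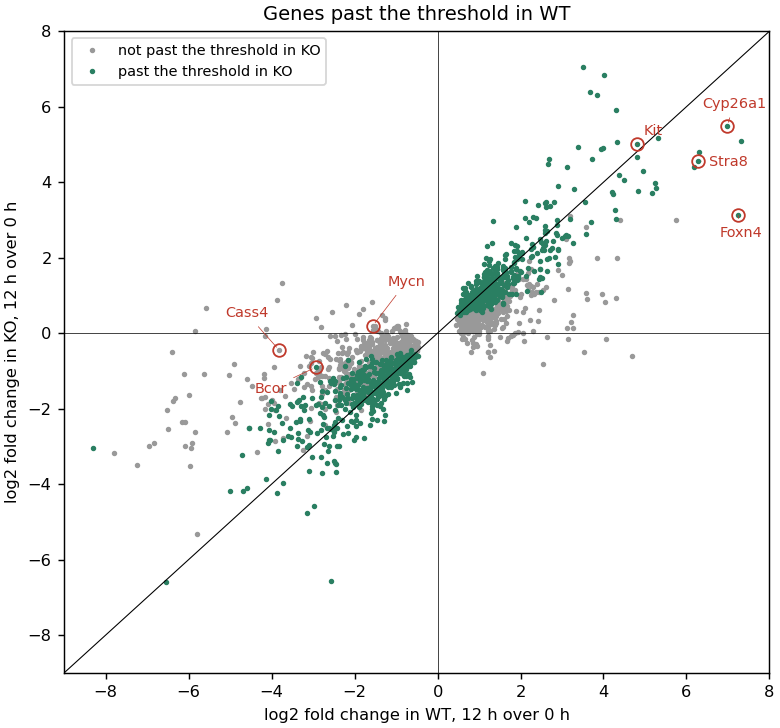
Log2 fold changes, 12 h over 0 h, in WT (x axis) and KO (y axis) of the 1907 genes that passed the threshold in WT, 1 point per gene, green where the gene also passed in KO. The diagonal marks equal changes; Mycn, which fell in WT, lies at 0.20 in KO.

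A test of the difference between the steps, WT minus KO, found 1 gene past the threshold, Mycn (0.00571% of genes tested). Of the 17519 genes tested, 1001 had an unadjusted p under 0.05 in this edgeR test. That count is not far above what this cut-off lets through where no step differs. Mycn, a Myc family factor of undifferentiated spermatogonia, had 25.6 and 31.2 CPM at WT 12 h and 87.6 and 79.3 CPM at WT 0 h (−1.56 ± 0.19). In KO it had 95.6 and 94.2 CPM at 12 h and 77.9 and 87.4 CPM at 0 h (0.20 ± 0.19). The steps differed by −1.76 on the log2 scale (edgeR adjusted p = 0.0191), and the WT 12 h libraries stood apart from the other 6 libraries. Next by p were Cass4, which fell by 3.82 ± 0.45 in WT and was at −0.44 ± 0.37 in KO with 21.2% of its exonic bases shared, and Bcor, a corepressor gene, which was at −2.94 ± 0.28 in WT and −0.91 ± 0.26 in KO. Neither difference passed. With the replicate block per genotype 18 genes passed, with DESeq2 26, without an expression filter 32 and with RLE size factors 4. Without WT 0 h replicate 1 or WT 12 h replicate 1 none passed in edgeR, and without WT 0 h replicate 2 the count was 3; the adjusted p of Mycn ranged from 1.79e-06 to 0.1 over 11 settings, with 9 under the threshold.

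Whether the 12 h levels lasted was read from the later WT libraries as means per time. All 15 of the largest rises had a lower mean at 18 h than at 12 h. By library, Stra8 in replicate 1 was not lower, at 722 CPM at 12 h and 737 CPM at 18 h. The genes were picked by these 12 h and 0 h values, which favours a move back at other times. The share over all genes was not computed. Cyp26a1 averaged 0.252 CPM at 0 h, 36.3 CPM at 12 h, 20.9 CPM at 18 h and 0.500 CPM at 48 h, so its 48 h mean was close to its 0 h mean. Lpo, already low at 18 h, averaged 0.448 CPM at 0 h, 18.4 CPM at 12 h and 1.94 CPM at 18 h. Kit stayed high, at 43.6 CPM at 0 h, 1206 CPM at 12 h, 827 CPM at 18 h and 478 CPM at 120 h. Stra8 averaged 11.6 CPM at 0 h, 886 CPM at 12 h, 776 CPM at 18 h, 148 CPM at 48 h and 24.8 CPM at 120 h. At 120 h, 6 of the 15 were still above their 0 h mean.

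Of the 15 largest falls, 5 were higher at 18 h than at 12 h, 14 at 48 h and 15 at 120 h, and all 15 were still below their 0 h mean at 120 h. The choice of these genes by low 12 h and high 0 h values favours such counts. Six4 averaged 69.7 CPM at 0 h, 4.13 CPM at 12 h, 3.51 CPM at 18 h and 17.3 CPM at 120 h. Esr1 averaged 26.1 CPM at 0 h, 1.34 CPM at 12 h, 1.75 CPM at 18 h and 8.27 CPM at 120 h in WT. In KO, Esr1 averaged 20.7 CPM at 0 h, 3.59 CPM at 12 h and 24.5 CPM at 120 h; whether the genotypes differ at the later times was not tested here.

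**Figure D4:**
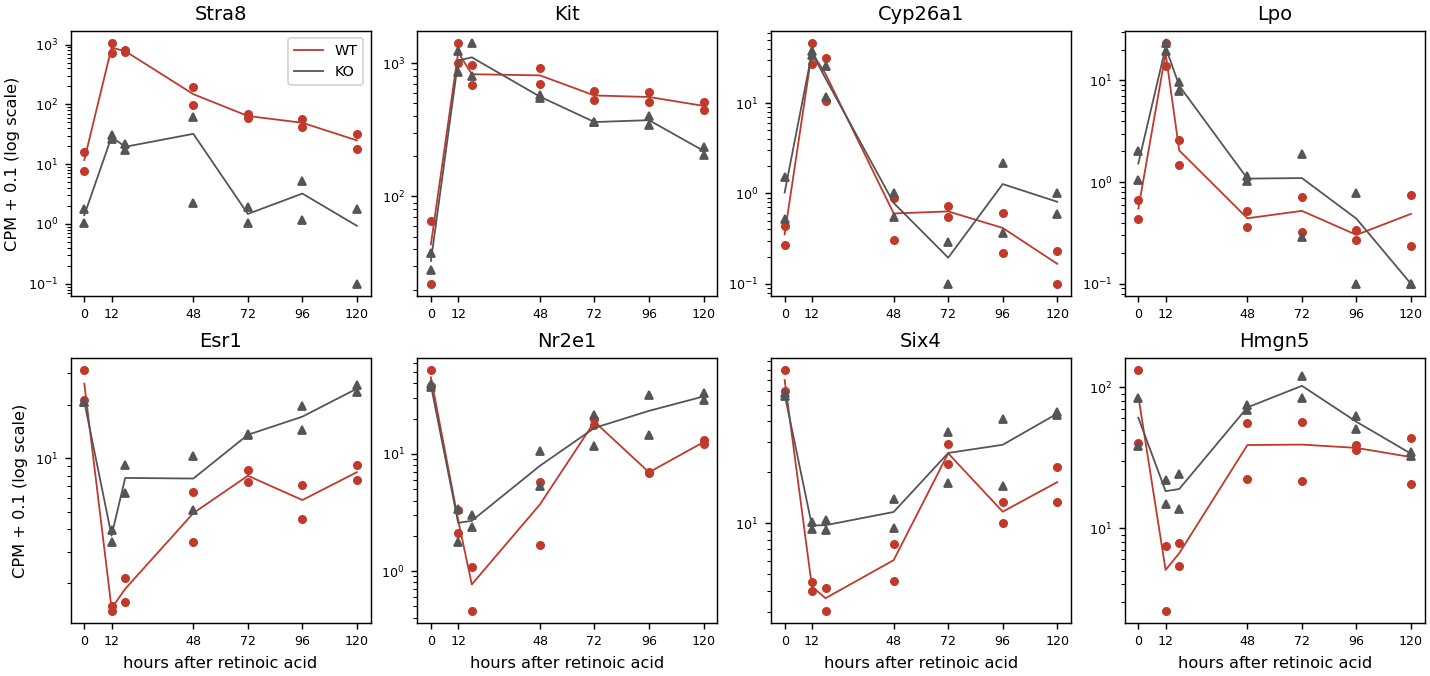
Levels of 4 genes that rose by 12 h (top) and 4 that fell (bottom) at 0 to 120 h after retinoic acid in WT (red circles) and KO (grey triangles), on log axes of CPM + 0.1. Points are libraries and lines join the means of the 2 libraries per time: Cyp26a1 and Lpo peak at 12 h, Kit is at 478 CPM in WT at 120 h, and Six4 and Esr1 are lowest at 12 to 18 h in WT.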

How the data were processed

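Per the labels' protocols, polyA RNA of sorted cells was made into Ion Total RNA-seq libraries. Bowtie, TopHat, Cufflinks and build mm10 come from the submitters' processing notes; versions, the counter and whether it read strand: not given in the sources used here. Raw counts by gene symbol were deposited in 2 tables, each with 1 library of every group, and CPM in 2 more; only the counts were tested. The tables named FPKM held CPM: all 14 WT columns equalled the same-numbered count column scaled to its total within 0.001 CPM. The design had assumed FPKM in these tables. Of the 14 KO columns, 11 equalled the count column of the other replicate number, among them all of 0 and 12 h, and 3, at 72, 96 and 120 h, equalled none. KO libraries were numbered as in the count tables, and late KO values and the block fit over all libraries rest on those counts. Of 43280 features, 27 date-like names were dropped, and 39354 matched 1 GENCODE gene of GRCm38, from which exon overlaps were computed. In the WT libraries of the first table, 27.1 to 33.1% of reads had no annotated feature, and these entered no total.

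The counts of all 28 libraries were fitted with edgeR 4.0.16 under R 4.3.3 using TMM scaling, the default expression filter (17519 genes), 14 group means, robust quasi-likelihood tests, Benjamini-Hochberg adjustment and a threshold of 0.05. CPM in the text are counts over TMM-scaled totals. DESeq2 1.42.0 was an alternative. On simulated counts of WT 12 h against WT 0 h over 17519 genes, 96% of 4-fold and 33% of 2-fold changes were recovered. The simulation gave all genes the same spread, had no replicate pairing and changed only a small set of well-counted genes. Its shares need not hold for the real libraries. Same-numbered WT libraries deviated together from their group means (r of 0.258 to 0.517 over 21 pairs of times, 0.517 for 0 and 12 h), so the numbers pair them; in KO 7 of 21 pairs were above 0.1. Floors are 3 counts per library, and floors and intervals cover counting error only. Named genes were Stra8, Kit, the 15 largest rises and falls past the threshold with at least 5 CPM, the 8 most abundant each way, up to 4 of each of 37 lists each way, and the 3 smallest p of the step difference; other names were chosen after their values were seen. The comparison, members and lists were chosen with earlier results of these data known. Abundance ranks are by CPM, not per length. Some genes that the rule names are not reported here.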

Additional observations from a re-analysis of the deposited data

Results flagged for a closer look

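The 0 to 12 h change of Mycn differed between the genotypes by a test of the difference itself, with a value of −1.76 on the log2 scale, WT step minus KO step (edgeR quasi-likelihood test, Benjamini-Hochberg adjusted p = 0.0191). Mycn fell in WT, where it had 25.6 and 31.2 CPM at 12 h and 87.6 and 79.3 CPM at 0 h, and had 95.6 and 94.2 CPM at 12 h and 77.9 and 87.4 CPM at 0 h in KO. Over 11 settings the difference was between −1.90 and −1.64, with an adjusted p under the threshold in 9; it was not called without WT 0 h replicate 1 or without WT 12 h replicate 1.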

How the results depend on the processing

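With only the 14 WT libraries in the fit, 1249 genes passed, 542 of them higher, and 4 mitosis and 4 meiotic genes were higher. With only the 4 libraries, 1006 passed, 449 higher and 557 lower, and 4 mitosis genes were higher. Adding the replicate block to the 4 libraries gave 5570 genes, 2753 higher and 2817 lower, with 37 replication, 17 mitosis and 18 meiotic genes higher. In that fit little spread per gene is left and most of it is borrowed across genes, so these counts are less secure. The block in the 14 WT libraries gave 2459, and the block per genotype in all 28 libraries, chosen after seeing the data, gave 2726. Leaving out each WT library in turn gave 838 to 1339 genes, 361 to 603 higher and 447 to 816 lower, with 10 to 14 cholesterol, 10 to 23 replication, 2 to 9 mitosis and 2 to 6 meiotic genes higher, 6 to 8 retinoic acid genes higher and 14 to 17 undifferentiated genes lower. The step difference between genotypes gave 26 genes with DESeq2, 4 with RLE factors, 32 without a filter, 18 with the block and 0 to 3 when a WT library was left out, against 1. When a library was left out, the lone sample of its group was assumed to vary like the other groups. Where the cause of such a move is not the number of libraries, it was not tested. With DESeq2, RLE factors, no filter, no mitochondrial genes or no shallow KO libraries (3, with 913055 to 1078460 reads), the WT counts of genes and list members stayed within 1.5 times. Of 139 named genes, 91 passed in all 4 fits that left out a WT library; in the fit of the 4 libraries with the block, Kit did not pass, 137 did and 1, Isg15, was not tested. No result reversed. Allowing 1 mismatch in the DR5 left the count of retinoic acid genes with one at 2. Depth of 6105236 to 10135820 counts and 2 libraries a group limit what can be seen of 2-fold changes, of which 33% were recovered in simulation.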
